A study of Homo sapiens with 6 samples.

Results

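Keratins are the intermediate filament proteins of epithelial cells, and the transcripts of their genes were measured in HDQ-P1 cells with and without Y-320. HDQ-P1 is an established human breast carcinoma cell line, and Y-320 is a small molecule that the study tested as an enhancer of readthrough of premature stop codons. The members were all rows of the count table whose Ensembl identifier belongs to a protein-coding gene named KRT followed by a number and, for some, a letter. Keratin-associated proteins and keratin pseudogenes were left out. The rule found 55 of the 40295 rows, and these are all 55 protein-coding keratins of the GENCODE 44 annotation. Of these, 29 were type I and 26 were type II keratins. Of the 6 RNA-seq libraries, 3 came from untreated cells and 3 from cells exposed to 1 µM Y-320 for 48 h. All cells grew in high glucose DMEM with fetal bovine serum. No solvent is described for the untreated cells, so the compound and its solvent cannot be told apart. The labels number the libraries from 1 to 3 in each group without saying whether they were separate cultures, so the p-values measure the spread between these libraries, which may be technical.

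A keratin filament is built from pairs of 1 type I and 1 type II protein, and a cell normally makes both types together. Which pair a cell makes depends on its place in the epithelium. KRT8 and KRT18, with KRT7 and KRT19, are the keratins of simple epithelia and of the luminal cells of the breast duct, while KRT5, KRT14, KRT15 and KRT17 mark basal cells. KRT6A and KRT16 are made by proliferating or wounded epidermis, KRT10, KRT4, KRT13 and KRT9 belong to the upper layers of stratified epithelia, and KRT81, KRT83, KRT85 and KRT86 are keratins of the hair shaft.

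The libraries held 21045401 to 22740535 estimated counts each, of which keratins took 1.29% ± 0.023 (SD, n = 3) in untreated cells. The limit that a count of 0 allows is 3 counts, which is 0.131 to 0.144 CPM (reads per library brought to one shared total), and it covers counting error only. Levels are given as CPM per kilobase of the canonical transcript, scaled between libraries by TMM (a trimmed mean of the log ratios of genes), so that they can be compared between genes. Changes are log2 fold changes of Y-320 over untreated cells with their standard error (SE), from edgeR's quasi-likelihood test over all 16580 genes that passed a filter on low counts. A gene was called higher or lower when its Benjamini-Hochberg adjusted p over all those genes was under 0.05. Of the 55 keratins, 20 passed the filter, and those 20 alone were tested.

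After 48 h with Y-320, 18 of the 20 tested keratins were lower, KRT10 was higher, and KRT78 did not pass the threshold. Of all genes tested, 25.4% were called lower and 26.2% higher. The fitted log2 fold change was lowest for KRT4, KRT13, KRT5, KRT9 and KRT14, and nearer to 0 for the abundant luminal keratins. KRT4 passed the filter through the untreated libraries alone, and KRT78 would not have passed without them. The 5 lowest with KRT6A and KRT8 made up the 7 keratins that were lower by at least 1 log2 unit, a size that 2.59% of all genes tested reached. In 18 keratins all 3 treated libraries lay below all 3 untreated ones, against 29.4% of all genes. In KRT10 they lay above, against 29.8% of all genes. The median log2 fold change was -0.73 over the 20 tested keratins and 0.00097 over all genes tested. These counts describe the members that passed the filter and stand for no other keratin. In a bulk measurement, fewer cells of a type and less RNA per cell cannot be told apart.

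**Figure D1:**
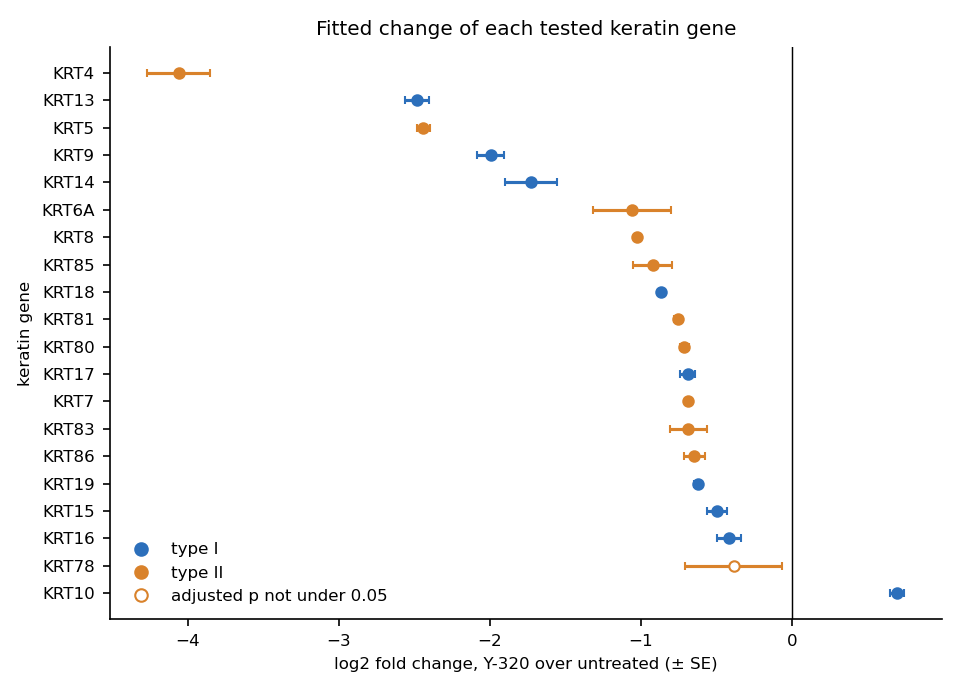
Log2 fold change of Y-320 over untreated cells (x axis, ± SE) for each of the 20 tested keratins, coloured by type, with an open point for the gene whose adjusted p was not under 0.05. KRT10 alone lies right of 0, KRT4 lies farthest left at -4.06, and the genes from KRT6A to KRT78 lie between -1.06 and -0.39.

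In untreated HDQ-P1 cells the keratin transcripts were mainly luminal. The luminal group held 84.5% ± 0.21 (SD, n = 3) of the summed keratin level, the basal group 5.92% ± 0.16 and the hair shaft group 8.45% ± 0.33. KRT7, a type II keratin of glandular and ductal epithelium, was the most abundant at 2287 ± 65.3 CPM per kilobase. It was followed by KRT19 (1823 ± 63.6), KRT8 (1577 ± 27.9), KRT18 (1061 ± 17.8) and KRT81 (650.1 ± 17.1), and these 5 genes held 92.6% ± 0.12 of the keratin level. The leading basal keratins were KRT17 at 284 ± 18.5 and KRT5 at 176 ± 2.69 CPM per kilobase.

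The other basal markers were low. KRT15 stood at 9.97 ± 0.53 CPM per kilobase and KRT14, the usual type I partner of KRT5, at 2.40 ± 0.22. KRT5 was thus 73.8 ± 5.81 times as abundant per length as KRT14 in untreated cells. KRT80 (28.2 ± 0.62), KRT10 (23.8 ± 0.40), KRT86 (16.5 ± 1.61), KRT13 (15.9 ± 0.44) and KRT16 (13.7 ± 1.38) made up the middle of the order. KRT9 (5.79 ± 0.30), KRT83 (4.47 ± 0.34), KRT85 (3.29 ± 0.29), KRT4 (2.49 ± 0.30), KRT6A (0.825 ± 0.20) and KRT78 (0.194 ± 0.035) were the lowest of those tested. Neighbours in this order had ranges over the 3 untreated libraries that did not overlap, apart from KRT86 with KRT13 and KRT4 with KRT14.

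**Figure D2:**
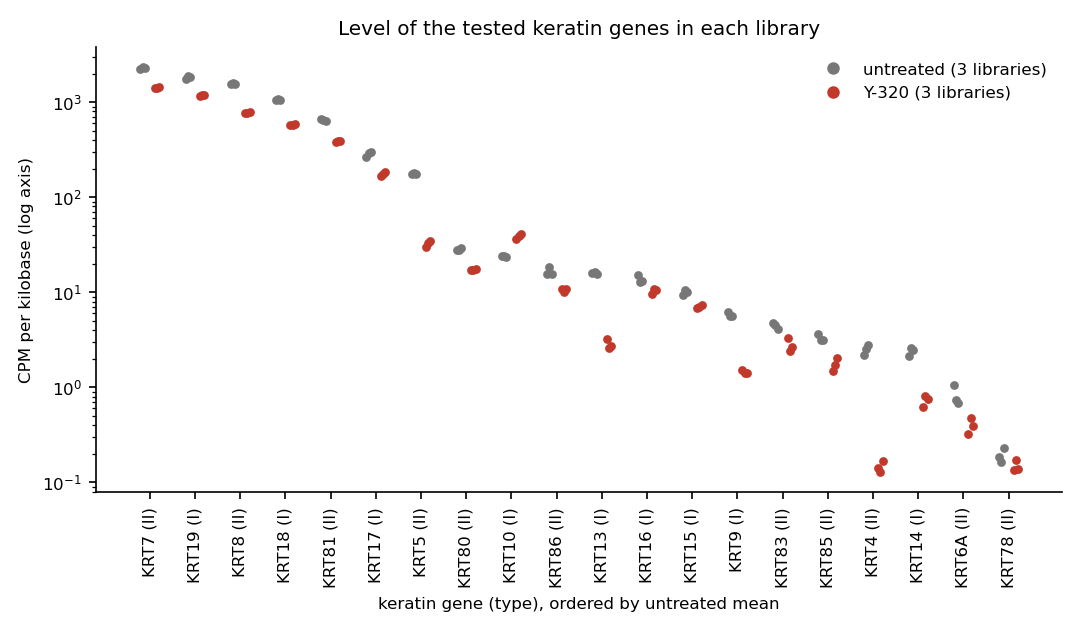
CPM per kilobase (log axis) of the 20 tested keratins in each of the 6 libraries, ordered by the untreated mean, with untreated libraries in grey and Y-320 libraries in red. The levels span from 2287 for KRT7 to 0.194 for KRT78 in untreated cells, and the red points lie below the grey ones for every gene but KRT10 and, with overlap, KRT78.

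All 4 luminal keratins were lower, beside 25.4% of all genes tested. KRT8, the type II keratin of simple epithelia, was at 1551, 1606 and 1574 CPM per kilobase in the untreated libraries and at 773, 777 and 779.6 in the treated ones. Its log2 fold change was -1.02 ± 0.019 (adjusted p = 2.44e-10), or 2.03-fold lower. KRT18, its type I partner, was at 1054, 1082 and 1049 in untreated cells and at 583, 580.0 and 589 with Y-320. KRT18 fell by 0.86 on the log2 scale (SE 0.020, adjusted p = 7.52e-10). For both genes the spread within a group was small beside the gap between the groups.

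KRT7 stood at 2212, 2333 and 2315 CPM per kilobase in untreated cells and at 1413, 1422 and 1431 in treated ones, and changed by -0.69 ± 0.021 on the log2 scale (adjusted p = 3.79e-09). KRT19, the smallest keratin and a marker of ductal epithelium, went from 1751, 1872 and 1845 to 1169, 1189.7 and 1196, a log2 fold change of -0.62 ± 0.025 (adjusted p = 2.00e-08). The groups did not overlap for either gene. KRT7 stayed the most abundant keratin, and the first 6 places of the order were held by the same genes in both groups. As a share of the keratin level, KRT8 went from 19.7% ± 0.13 to 16.7% ± 0.094 (SD, n = 3), while KRT19 went from 22.8% ± 0.31 to 25.4% ± 0.050.

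The 4 basal keratins were lower too, by very different amounts, beside 25.4% lower of all genes tested. KRT5, the type II keratin of basal cells, stood at 174, 179 and 176 CPM per kilobase in untreated libraries and at 30.0, 32.9 and 34.6 in treated ones. Its log2 fold change was -2.44 ± 0.043 (adjusted p = 2.00e-10), or 5.43-fold lower. KRT14 went from 2.16, 2.58 and 2.46 to 0.615, 0.811 and 0.745, a log2 fold change of -1.73 ± 0.17 (adjusted p = 1.57e-05). Both genes were clearly separated between the groups, although KRT14 rested on 78.2 to 88.8 estimated counts per untreated library and 22.8 to 28.9 per treated one.

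KRT17, a keratin of basal and stress-exposed epithelium, moved less than KRT5. It stood at 263, 293 and 296 CPM per kilobase in untreated cells and at 167, 178 and 184 in treated ones, and changed by -0.69 ± 0.048 on the log2 scale (adjusted p = 9.36e-07). KRT15, a keratin of basal and stem cell layers, went from 9.42, 10.5 and 10.0 to 6.85, 6.92 and 7.43, a log2 fold change of -0.50 ± 0.066 (adjusted p = 1.16e-04). KRT17 was the most abundant basal keratin in both groups. The ratio of KRT5 to KRT17 per length was 0.622 ± 0.034 in untreated and 0.184 ± 0.0046 in treated libraries (SD, n = 3).

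Of the 5 tested keratins of upper epithelial layers, KRT4, KRT13 and KRT9 fell, KRT10 rose and KRT78 did not pass the threshold. Of all genes tested, 25.4% were lower and 26.2% higher. KRT4, the type II keratin of the inner lining of the mouth and oesophagus, had 103, 112 and 131 estimated counts without and 7, 6 and 8 with the compound. It passed the filter through the untreated libraries alone. Its log2 fold change was -4.06 ± 0.21 (adjusted p = 1.04e-07), or 16.7-fold lower, the 5th lowest of all genes tested. KRT13, its type I partner, went from 15.8, 16.4 and 15.6 CPM per kilobase to 3.22, 2.56 and 2.74, a log2 fold change of -2.48 ± 0.079 (adjusted p = 4.01e-09). The groups lay far apart for both partners.

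KRT9, a type I keratin of palm and sole skin, went from 6.14, 5.62 and 5.60 CPM per kilobase to 1.53, 1.42 and 1.42. Its log2 fold change was -1.99 ± 0.090 (adjusted p = 4.21e-08). KRT10, the type I keratin of the upper epidermis, moved the other way. It stood at 24.2, 23.9 and 23.4 in untreated cells and at 36.3, 39.0 and 40.9 in treated ones. Its log2 fold change was 0.70 ± 0.046 (adjusted p = 5.97e-07), or 1.62-fold higher. It went from the 9th to the 7th place in the order of levels, above KRT5 and KRT80. Its usual type II partners KRT1 and KRT2 had at most 1 count in any library. KRT78 had 12, 10 and 15 counts in untreated and 9, 11 and 9 in treated libraries, with a log2 fold change of -0.39 ± 0.32 (adjusted p = 0.364), so a change was not detectable at this depth.

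Promoter sequences from RefSeq (build GRCh38.p14) were found for 6 of the 20 tested keratins, KRT4, KRT5, KRT8, KRT85, KRT9 and KRT10. The 70 bases before the RefSeq start are shown for the genes with 3 of the largest declines and for the gene that rose. All 4 lie on the minus strand, and each is written 5′ to 3′ along the gene. Capitals mark the letters ATAA, which occur in TATA boxes, between 40 and 20 bases before the start. They follow a t in KRT4, KRT9 and KRT10 and a g in KRT5, so the longer TATAA is absent there in KRT5. The motif was chosen after these sequences were seen.
KRT4, chr12:52814117-52814186: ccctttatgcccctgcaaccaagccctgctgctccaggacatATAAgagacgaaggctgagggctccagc
KRT5, chr12:52520395-52520464: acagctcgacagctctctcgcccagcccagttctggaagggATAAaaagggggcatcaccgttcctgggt
KRT9, chr17:41572060-41572129: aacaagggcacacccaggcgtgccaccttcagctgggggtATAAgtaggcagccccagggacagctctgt
KRT10, chr17:40822615-40822684: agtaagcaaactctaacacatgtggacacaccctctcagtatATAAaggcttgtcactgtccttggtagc
The letters begin at position -28 in KRT4 and KRT10, at -29 in KRT5 and at -30 in KRT9, so the gene that rose and the genes that fell carry them at nearly the same place. On the gene strand, 7.9% of the 35116 promoters of the table hold ATAA in that window, and 11.4% hold it on either strand. Of the entries not shown, 1 of 2 for KRT85 held the letters in the window and that of KRT8, 23485 bases from the GENCODE start of the gene, did not. The RefSeq start of KRT5 lies 136 bases from its GENCODE start. The match is a description of the letters and no test was made of it.

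Both genes of the hyperproliferation pair were low and fell, beside 25.4% lower of all genes tested. KRT16 went from 15.3, 12.8 and 13.0 CPM per kilobase to 9.50, 10.9 and 10.6, a log2 fold change of -0.41 ± 0.080 (adjusted p = 0.00142). KRT6A had 34.8 to 54.2 estimated counts in untreated and 17.1 to 24.2 in treated libraries, a log2 fold change of -1.06 ± 0.26 (adjusted p = 0.00597). The groups did not overlap for either gene. Over each library left out in turn, the KRT6A value ran from -1.20 to -0.83. Reads of KRT6A cannot be fully told from its copies KRT6B and KRT6C, with which its coding sequence shares 97.5% and 97.9% of aligned bases. KRT6B itself had 7.37, 3.40 and 2.50 counts in untreated cells and 0 in all treated libraries, and it did not pass the filter (adjusted p = 0.0114 in edgeR without the filter).

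The hair shaft keratins were led by KRT81, a type II keratin of the hair cortex. It went from 663, 657 and 631 CPM per kilobase to 378, 394 and 386, a log2 fold change of -0.75 ± 0.025 (adjusted p = 5.17e-09). KRT86 (-0.64 ± 0.070), KRT83 (-0.69 ± 0.12) and KRT85 (-0.92 ± 0.13), keratins of the same shaft, fell with adjusted p values of 2.52e-05, 9.14e-04 and 1.64e-04. The group held an overlapping share of the keratin level, 8.45% ± 0.33 in untreated and 8.62% ± 0.10 in treated libraries (SD, n = 3). KRT80, a type II keratin outside these groups, fell by 0.71 on the log2 scale (SE 0.030, adjusted p = 2.83e-08).

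The values of KRT81 and KRT86 rest on how the counting divided reads between near-identical transcripts. Over 1454 aligned bases their coding sequences were 94.2% identical, and the longest run without a difference was 605 bases, from coding base 61 of both genes. Its first 120 bases, coding bases 61 to 180, are shown from the GENCODE 44 transcripts in lower case throughout, since every base is shared.
KRT81 and KRT86: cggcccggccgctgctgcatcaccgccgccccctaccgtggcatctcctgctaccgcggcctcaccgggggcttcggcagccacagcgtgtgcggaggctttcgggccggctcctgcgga
KRT81 lies on the minus strand at chr12:52285913-52291534 (hg38), within the span of KRT86 on the plus strand at chr12:52249300-52309163. On either strand, 53.2% of the 31-base words of KRT81 and 48.2% of those of KRT86 also occurred in another gene. The share was 44.1% for KRT6A, 36.7% for KRT18, 33.4% for KRT14, 32.8% for KRT17, 31.8% for KRT16, 29.2% for KRT83 and 25.8% for KRT8. It was at most 16.0% for the other tested keratins, with 4.22% for KRT5, 1.67% for KRT10, 1.48% for KRT4 and 0 for KRT9. KRT8 and KRT18 overlap on opposite strands, and 14.8% of the words of KRT18 also occurred in KRT8. The sources used here do not say whether the reads kept their strand.

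Both types fell, type II by more. The summed type I level was 3140, 3319 and 3261 CPM per kilobase in untreated and 1977, 2009 and 2032 in treated libraries, 61.9% of the untreated mean. The summed type II level was 4655, 4833 and 4751 in untreated and 2628, 2658 and 2665 in treated libraries, 55.8% of the untreated mean. The ratio of type I to type II rose from 0.683 ± 0.0069 to 0.757 ± 0.0050 (SD, n = 3), with groups that did not overlap. Type II was the more abundant type in every library. Of the 9 tested type I keratins 8 were lower and 1 higher, with a median log2 fold change of -0.69, and of the 11 tested type II keratins 10 were lower, with a median of -0.75. Over all genes tested, 25.4% were lower and 26.2% higher, with a median of 0.00097.

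The luminal sum went from 6748 ± 166 to 3967 ± 28.6 CPM per kilobase and the basal sum from 473 ± 21.6 to 216 ± 10.9. The ratio of basal to luminal level was 0.0682, 0.0704 and 0.0715 in untreated and 0.0520, 0.0550 and 0.0567 in treated libraries. The groups did not overlap, and the basal share of the keratin level was 5.92% ± 0.16 in untreated and 4.65% ± 0.19 in treated libraries. The hyperproliferation sum went from 14.7 ± 1.66 to 10.7 ± 0.80. The suprabasal sum, which holds both KRT10 and KRT13, went from 48.4 ± 0.62 to 43.4 ± 2.03, or 89.7% of the untreated mean, and its share of the keratin level from 0.606% ± 0.017 to 0.931% ± 0.035. Keratins together took 0.750% ± 0.0067 of all counts with Y-320, against 1.29% ± 0.023 in untreated cells. No test was made on these sums and ratios, since the genes in them were tested one by one. The log2 change of the basal sum was -1.13, and it was -2.23 without KRT17, its most abundant gene. The change of the basal to luminal ratio was -0.36, and it was -1.42 without KRT17 and KRT7.

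**Figure D3:**
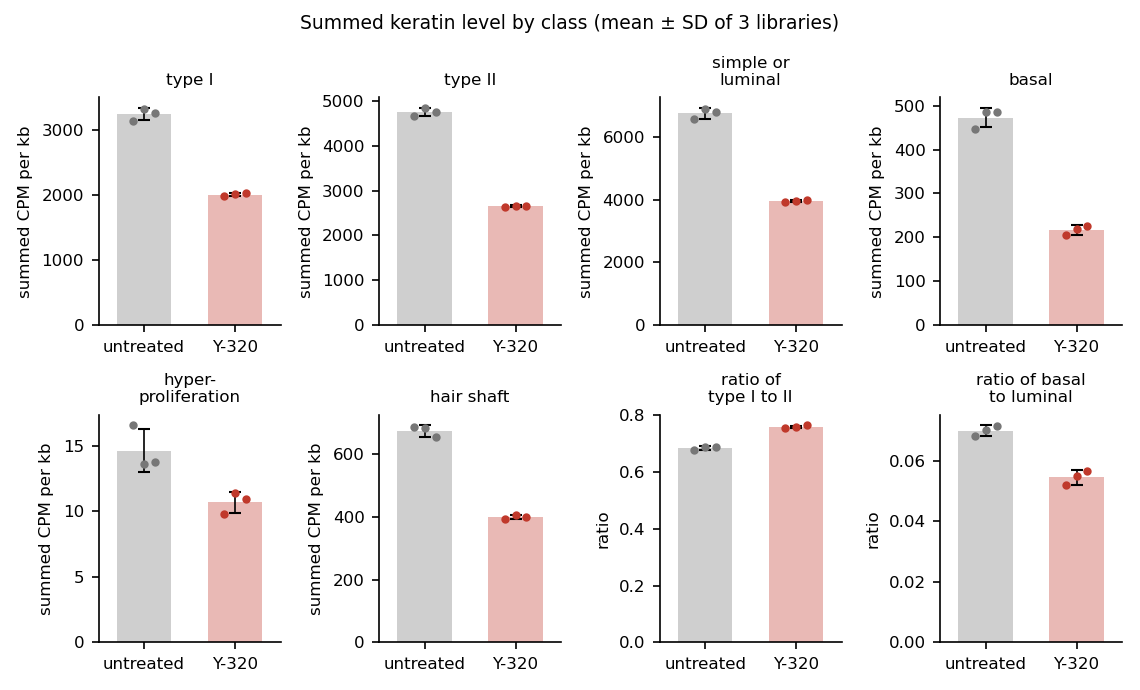
Summed level of 6 keratin classes in CPM per kilobase, and 2 ratios of such sums, in untreated (grey) and Y-320 (red) libraries, with bars for the mean, error bars for the SD of 3 libraries and points for each library. Every class is lower with Y-320, the ratio of type I to type II is higher (0.683 and 0.757), and the ratio of basal to luminal is lower (0.0700 and 0.0545).

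Set beside their usual partners, the type II member fell further in each pair. KRT8 over KRT18 was 1.49 ± 0.014 in untreated and 1.33 ± 0.0089 in treated libraries, and KRT7 over KRT19 was 1.25 ± 0.0085 and 1.20 ± 0.0071 (SD, n = 3). KRT5 over KRT14 went from 73.8 ± 5.81 to 45.2 ± 4.24. KRT4 over KRT13 went from 0.156 ± 0.020 to 0.0520 ± 0.0087, and KRT6A over KRT16 from 0.0595 ± 0.0086 to 0.0382 ± 0.0050. The untreated and treated ranges did not overlap for any of these pairs, and the same was not counted over other gene pairs. In treated libraries KRT4 had 7, 6 and 8 estimated counts and KRT6A 17.1 to 24.2, so their ratios rest on few reads.

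Along the chromosomes, type I genes lie together on chromosome 17, with 28 members, and type II genes on chromosome 12, with 26 members and the type I gene KRT18 at the edge of the cluster next to KRT8. Tested keratins with unlike changes were neighbours. On chromosome 17, KRT13 (-2.48), KRT15 (-0.50), KRT19 (-0.62), KRT9 (-1.99), KRT14 (-1.73), KRT16 (-0.41) and KRT17 (-0.69) follow each other along the chromosome, with their log2 fold changes in brackets. KRT10 lies apart from these 7, at chr17:40818117-40822614, and the keratins that lie between them were not tested. On chromosome 12 the run from KRT80 over KRT7, KRT86, KRT81 and KRT83 to KRT85 spanned log2 fold changes from -0.64 to -0.92.

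**Figure D4:**
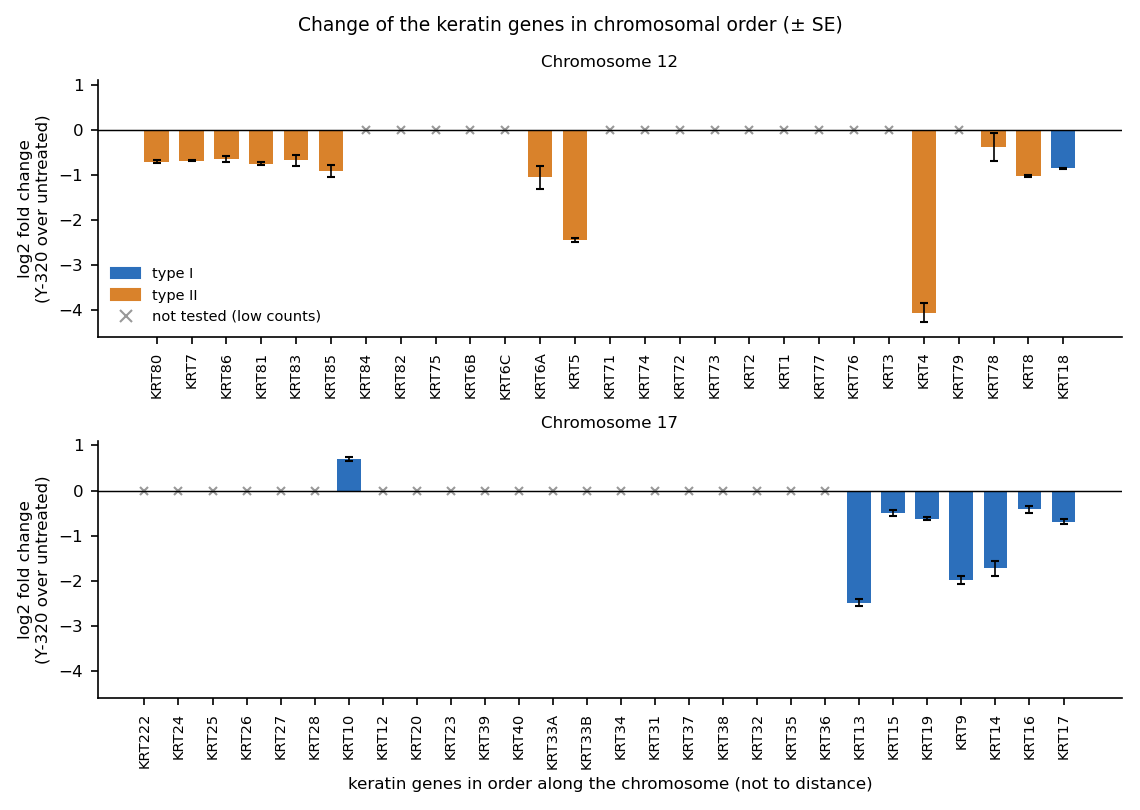
Log2 fold change of Y-320 over untreated cells (y axis, ± SE) for all 55 keratins in their order along chromosomes 12 and 17, spaced evenly and not by distance, coloured by type, with crosses for genes that were not tested. The last 7 genes on chromosome 17 all fell but by unlike amounts, from -0.41 for KRT16 to -2.48 for KRT13.

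The other 35 keratins did not pass the filter. Of these, 8 were at 0 in all 6 libraries and 27, the 8 included, had at most 3 counts in every library. The 9 keratins of the hair root sheath were all among the untested, as were 13 of the 17 of the hair shaft. The remaining 8 were KRT34, KRT33B, KRT6B, KRT3, KRT79, KRT222, KRT23 and KRT71. KRT34 had 24.7 counts in untreated replicate 3 and was at or near 0 in the other libraries, so its level rested on 1 library. The others had at most 8 counts in any library. Without the filter, edgeR called KRT6B (adjusted p = 0.0114), KRT34 (0.0236), KRT33B (0.0461) and KRT23 (0.0474) lower, each on few counts. For the other untested keratins a difference was not detectable at this depth.

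Genes that anchor or bind keratin filaments moved in both directions. Of 20 such genes, all tested, 3 were higher, 9 lower and 8 not past the threshold, beside 26.2% higher and 25.4% lower of all genes tested. Their median log2 fold change was -0.21. PKP2, a plakophilin of the desmosome, fell by 0.85 on the log2 scale (SE 0.028, adjusted p = 5.16e-09), and EPPK1, the keratin-binding linker epiplakin, fell by 0.72 (SE 0.063, adjusted p = 5.96e-06). DSP, the desmosomal plakin that ties keratins to the junction, rose by 0.37 ± 0.031 (adjusted p = 3.67e-06), and DSG3, a desmosomal cadherin, by 0.37 ± 0.12 (adjusted p = 0.0248, and 0.0988 in DESeq2). PLEC, the plectin linker, went from 1512 ± 39.4 to 1258 ± 49.0 CPM (SD, n = 3).

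Transcription factors known to act on keratin or epithelial genes moved in both directions. Of 17, all tested, 7 were higher, 8 lower and 2 not past the threshold, beside 26.2% and 25.4% of all genes tested, with a median log2 fold change of -0.052. FOSL1, an AP-1 subunit, rose from 12.4 ± 0.67 to 52.8 ± 1.25 CPM, a log2 fold change of 2.09 ± 0.049 (adjusted p = 7.65e-10). KLF4, a factor of upper epidermal layers, rose from 17.5 ± 0.79 to 58.9 ± 4.30 CPM, a log2 fold change of 1.75 ± 0.063 (adjusted p = 9.02e-09). GRHL3 (-1.05 ± 0.20, adjusted p = 0.00147) and GRHL2 (-0.86 ± 0.039, adjusted p = 4.81e-08), both grainyhead factors of epithelia, fell. TP63, the factor of basal cells, was low at 3.57 ± 0.41 CPM and 2.72 ± 0.099 with Y-320 (log2 fold change -0.39 ± 0.14, adjusted p = 0.0441, and 0.168 in DESeq2).

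Intermediate filament genes outside the keratins did not share one direction. Of 13 tested of 18, 3 were higher, 5 lower and 5 not past the threshold, beside 26.2% and 25.4% of all genes tested, with a median log2 fold change of -0.21. PRPH, counted among the 3 higher, passed the filter through the treated libraries alone. It had 9.05, 7.03 and 9.04 estimated counts in untreated and 28.1, 27.1 and 20.1 in treated libraries. INA, a neuronal filament protein, rose by 0.68 ± 0.036 (adjusted p = 1.34e-07), and VIM, the vimentin of mesenchymal cells, rose from 632 ± 34.3 to 958 ± 15.9 CPM (0.60 ± 0.035, adjusted p = 2.61e-07). IFFO2 fell by 0.98 on the log2 scale (SE 0.045, adjusted p = 5.17e-08) and LMNB1, a nuclear lamin, by 0.50 (SE 0.030, adjusted p = 2.99e-07). Of 22 genes of the cornified envelope, the protein shell of dying keratinocytes, 8 were tested, of which 2 were higher, 5 lower and 1 not past the threshold, beside the same shares of all genes, with a median of -0.47. TGM1, the enzyme that crosslinks it, had a log2 fold change of -1.59 ± 0.25 (adjusted p = 3.25e-04), and IVL, its scaffold protein involucrin, -1.51 ± 0.14 (adjusted p = 8.36e-06). S100A9, a calcium-binding protein, rose by 0.39 ± 0.096 (adjusted p = 0.00649). SPRR1A, also counted as higher, passed the filter through the treated libraries alone. It had 3, 2 and 0 estimated counts in untreated and 21.7, 12.6 and 17.9 in treated libraries.

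**Figure D5:**
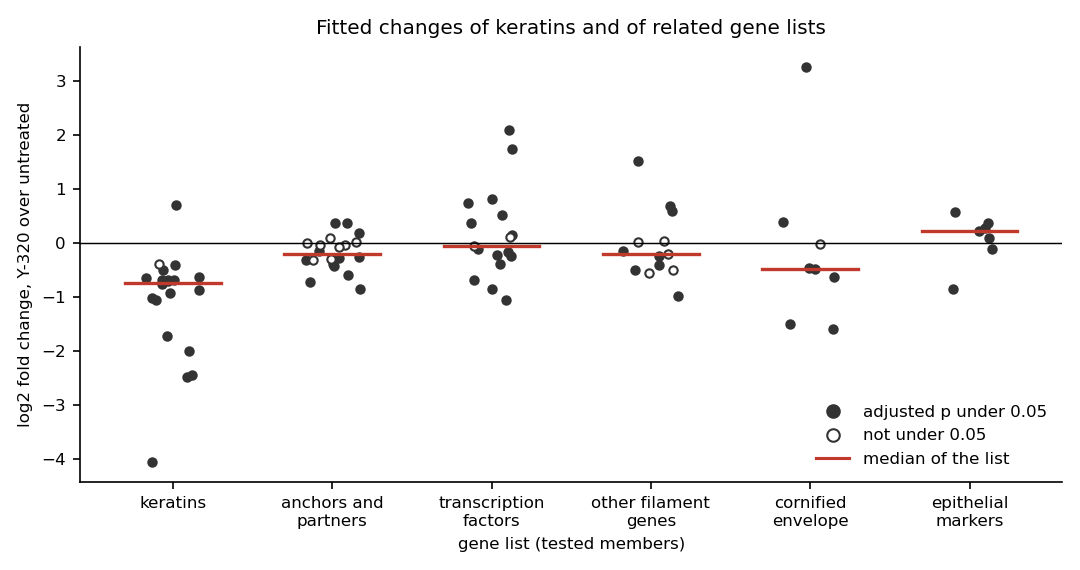
Log2 fold change of Y-320 over untreated cells (y axis) for the tested genes of 6 lists (x axis, points spread sideways for sight), with filled points for adjusted p under 0.05 and a red line at the median of each list. The keratin median lies at -0.73, the medians of partners, transcription factors and other filament genes between -0.21 and -0.05, and that of epithelial markers at 0.23.

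Of 7 general epithelial markers, 5 were higher and 2 lower with Y-320, beside 26.2% higher and 25.4% lower of all genes tested. All 7 were tested, and their summed level was 1639.8 to 1679 CPM in untreated and 1869 to 1877 CPM in treated libraries. EPCAM, CLDN4, CLDN7, ESRP1 and MUC1 were higher, by 0.099 to 0.57 on the log2 scale, while CDH1 (-0.11 ± 0.025) and GRHL2 were lower. Of the breast receptors, ESR1 was low at 7.86 ± 0.58 CPM (log2 fold change -0.034, adjusted p = 0.790) and PGR was under the test's filter, with ERBB2 at 195 ± 5.21 CPM and EGFR at 300.0 ± 2.24 CPM (SD, n = 3). ERBB2 fell by 0.31 and EGFR rose by 0.29 on the log2 scale, with adjusted p values of 3.76e-05 and 1.15e-05.

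Of 5 myoepithelial markers 4 were tested, with 0 higher and 1 lower, beside 26.2% higher and 25.4% lower of all genes tested. OXTR was lower, with libraries that overlapped between the groups, while ACTA2, MYH11 and MME did not pass the threshold. The summed level of the 5 markers was 31.8 to 39.0 CPM in untreated and 33.7 to 34.9 CPM in treated libraries. Of 12 stromal, immune and endothelial markers 10 were tested. Of the 10, 2 were higher (CD68, PECAM1) and 4 lower (COL1A1, COL1A2, LUM, CDH5), beside the same shares of all genes. The other 4 (COL3A1, DCN, PTPRC, VWF) did not pass the threshold. The summed level of the 12 markers was 294 to 327 CPM in untreated and 204 to 232 CPM in treated libraries. MS4A1 was at 0 in all and CD3E under 0.1 CPM. The part of these markers in the keratin changes was not tested.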

How the data were processed

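RNA-seq of 6 libraries was used. The authors deposited estimated counts per Ensembl gene, not normalized. The submitters' processing notes name kallisto 0.46.1 and the builds GRCh38 and hg38, and the Ensembl release is not given in the sources used here. Of 40295 identifiers, 35390 matched a gene name. The keratins and all gene lists were chosen with earlier results of these data known. Every tested keratin was named, and from each related list the 2 largest changes in each direction past the threshold at a mean of at least 1 CPM and the cell type markers. PLEC, TP63, PRPH and SPRR1A were added after their values were seen.

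Estimated counts were rounded, filtered with filterByExpr (minimum 10, total 15), scaled by TMM and fitted by the quasi-likelihood model of edgeR 4.0.16 (R 4.3.3) with no block. P-values were adjusted by Benjamini-Hochberg over all tested genes and called under 0.05. The fit was tested on simulated data. DESeq2 1.42.0, limma-voom (limma 3.58.1), other scalings and filters, a replicate block, unrounded counts, summed near-identical copies and leaving out each library served as alternatives. Lengths and positions came from GENCODE 44 on hg38. The pairwise chi-square per degree of freedom was 2.02 to 2.98 within groups and 40.2 to 42.1 between them, so no libraries were counted as copies. Plots and tables were made with Python 3.11.15, pandas 2.3.3 and matplotlib 3.10.9. No sequencing batch is given, and no protein sequence was used here.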

Additional observations from a re-analysis of the deposited data

How the results depend on the processing

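The counts of keratins called, 1 higher and 18 lower, were 1 and 18 under other scalings, unrounded counts and summed near-identical copies. DESeq2, limma-voom and each library left out gave the same counts. The summed copies were KRT6A with KRT6B and KRT6C, and numbered pseudogene rows with their parent keratin. KRT81, KRT83, KRT86 and KRT87P were not summed, so the division of reads between them was not checked. Under other scalings, 3917 to 4539 of all 16580 genes were higher and 3999 to 4746 lower. Without a filter 22 keratins were lower, beside 4079 of all 27170 genes tested. This added KRT6B, KRT33B, KRT23 and KRT34, the last counted in 1 library only. With at least 10 counts in every library 17 were lower, beside 4187 of all 15496 genes tested. That filter removed KRT4 and KRT78. With a minimum log2 change of 1 besides, 0 were higher and 7 lower, where 2.59% of all genes tested were lower. Of the 318 values of single keratins under these alternatives, none changed sign or side of the threshold. In DESeq2, DSG3, TP63 and CNFN were no longer called (adjusted p = 0.0988, 0.168 and 0.0530) and SPRR1B was called higher. Anchors then had 2 higher and 9 lower, transcription factors 7 and 7, other filament genes 3 and 5 and cornified envelope genes 3 and 4. Of all 17927 genes with an adjusted p in DESeq2, 3835 were higher and 3697 lower. The deviations of same-numbered libraries were hardly correlated (-0.0024, 0.015 and 0.0022), which cannot show whether the replicate numbers pair the libraries. With a replicate block, 1 keratin was higher and 18 lower, and of all 16580 genes tested 4285 were higher and 4159 lower.

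Without the most abundant gene of each class, the log2 changes were -0.79 (type I), -1.002 (type II), -0.81 (luminal), -2.23 (basal, without KRT17) and -1.19 (hyperproliferation, without KRT16). The change was then 0.21 for type I over type II and -1.42 for basal over luminal, and the untreated ratios were 0.576 and 0.0423. Without dividing by length, the basal change was -1.26, the ratio changes 0.17 and -0.48, and the untreated ratios 0.551 and 0.0801. With the longest transcript, the basal to luminal change was -0.46 and the untreated ratio 0.0719. With upper-quartile scaling the type II change was -0.87. Leaving out each library gave -0.71 to -0.67 (type I), -0.85 to -0.83 (type II), -0.79 to -0.75 (luminal), -1.16 to -1.09 (basal), -0.50 to -0.35 (hyperproliferation), 0.14 to 0.15 (type I over type II) and -0.39 to -0.33 (basal over luminal). Genes under 10 counts, such as KRT4 with Y-320, rest on few reads.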

Other observations

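Rows next to the keratins and rows of their pseudogenes, outside the rule, were read as well. KRT10-AS1, a transcript that overlaps KRT10 on the other strand, rose from 23.9 ± 0.82 to 32.4 ± 0.25 CPM (SD, n = 3), a log2 fold change of 0.44 ± 0.043 (edgeR adjusted p = 1.20e-05), and 1.53% of the 31-base words of KRT10 also occurred in it. KRT87P, a hair keratin pseudogene that overlaps the span of KRT86, went from 31.4 ± 0.40 to 17.1 ± 1.24 CPM (log2 fold change -0.87 ± 0.055, edgeR adjusted p = 4.80e-07). After KRT81, it shared the most 31-base words with KRT86 and with KRT83, so its reads cannot be fully told from theirs. The pseudogene KRT8P12 had a log2 fold change of -0.21 ± 0.067 (edgeR adjusted p = 0.0244), and KRT17P4 of -0.044 ± 0.44 (adjusted p = 0.944). The 51 rows of KRT8 pseudogenes held 0.715% to 1.22% of the summed counts of KRT8 and its pseudogenes in a library, and the 67 rows of KRT18 pseudogenes 0.183% to 0.400%.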
